A study of Mus musculus with 9 samples.

Results

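In nuclei of purified brain endothelial cells (ECs), 3548 accessible regions were found in both old EC-K4KO libraries and in none of the other 7 libraries of the study. They were chosen by the presence of peaks alone: the peak intervals of all 9 libraries that shared at least 1 bp were merged into 92495 regions, and a region was kept when both old EC-K4KO lists held a peak in it and no other list did. These regions made up 3.84% of all merged regions and 10.6% of the 33348 regions with a peak in both old EC-K4KO libraries. Because the peak lists chose them, their number and their strength are given as descriptions without a test.

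EC-K4KO mice carried the tamoxifen-inducible Cre recombinase CDH5-CreERT2, driven by the promoter of the EC cadherin gene Cdh5, together with floxed Klf4 alleles. WT Cre mice, labelled CdH5CRE, carried the same Cre, and per the study's methods tamoxifen was given in both genotypes, so Cre and tamoxifen were shared by all groups. Libraries were made by Omni-ATAC from flow-sorted ECs of young WT Cre (n = 2), young EC-K4KO (n = 3), old WT Cre (n = 2) and old EC-K4KO (n = 2) brains. As a model, the deletion was not restricted to the brain, since Cdh5 is active in endothelium of all organs. The labels do not say whether each library came from 1 animal or from pooled animals. Library names carried one prefix for all young and another for all old samples, so age and that prefix cannot be told apart.

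ATAC-seq inserts adapters where DNA is free of tightly wrapped nucleosomes, so its peaks mark promoters, enhancers and insulators that are open in a cell type. Enhancers lie away from gene starts, in introns and between genes, and are the class of element that differs most between cell types and cell states. KLF4 is a zinc finger factor that binds GC-rich and CACCC sequences, is induced in ECs by laminar blood flow, and restrains inflammation and coagulation in the vessel wall. CTCF, another zinc finger protein, binds insulators and loop anchors. AP-1 (Fos and Jun proteins), ETS factors and SoxF factors bind many endothelial enhancers.

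The sequences shown are from the best-ranked distal members and from members beside genes of endothelial biology. Each is the interval shared by the peaks of both old EC-K4KO libraries, at most 300 bases at its centre, read 5′ to 3′ from the plus strand of GRCm38, the build named mm10 in the files. Capitals mark matches, on either strand, to 5 patterns: KLF (CCNCNCCC), AP-1 (TGANTCA), ETS (CNGGAAGT), SoxF (AACAATG) and a longer CTCF pattern (CCNNNAGNNGGC). The CTCF pattern was added after these sequences had been seen. None of the intervals overlapped an exon of GENCODE M21. The first 8 are from the 10 members that ranked best by -log10 p over both lists, without Sepn1, which overlaps an exon, and 4930592I03Rik. They lie in intron 1 of Alad (chr4:62516186-62516372), in intron 1 of Eef2kmt (chr16:5254416-5254581), 10027 bp upstream of Arhgap23 (chr11:97440045-97440222), 1.7 kb upstream of Pcnx (chr12:81858274-81858477), 8.4 kb upstream of Mapre3 (chr5:30806236-30806417), 8.8 kb upstream of Zfpm1 (chr8:122273272-122273421), in an intron annotated to Gm16130 (chr9:58038622-58038777) and between genes 104.1 kb from the start of Trim33 (chr3:103383274-103383444). Of these 8 sequences, 6 hold the CTCF pattern, that near Arhgap23 holds the KLF pattern, and that near Pcnx holds none of the 5.
Alad: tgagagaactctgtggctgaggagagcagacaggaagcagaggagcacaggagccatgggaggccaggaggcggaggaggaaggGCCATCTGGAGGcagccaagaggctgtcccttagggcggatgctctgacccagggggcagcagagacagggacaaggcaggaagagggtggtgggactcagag
Eef2kmt: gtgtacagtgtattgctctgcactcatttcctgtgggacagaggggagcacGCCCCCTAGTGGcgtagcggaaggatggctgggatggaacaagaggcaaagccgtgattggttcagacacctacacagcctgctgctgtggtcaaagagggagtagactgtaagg
Arhgap23: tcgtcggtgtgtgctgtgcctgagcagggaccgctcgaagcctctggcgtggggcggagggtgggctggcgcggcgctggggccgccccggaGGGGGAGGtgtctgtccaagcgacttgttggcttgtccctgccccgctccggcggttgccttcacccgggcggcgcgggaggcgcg
Pcnx: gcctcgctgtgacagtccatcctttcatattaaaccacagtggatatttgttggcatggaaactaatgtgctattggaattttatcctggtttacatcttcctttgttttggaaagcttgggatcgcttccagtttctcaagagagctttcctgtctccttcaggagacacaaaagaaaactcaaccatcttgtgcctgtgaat
Mapre3: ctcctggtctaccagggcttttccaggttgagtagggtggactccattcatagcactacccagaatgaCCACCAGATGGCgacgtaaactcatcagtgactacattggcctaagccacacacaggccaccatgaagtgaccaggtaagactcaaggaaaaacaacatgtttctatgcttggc
Zfpm1: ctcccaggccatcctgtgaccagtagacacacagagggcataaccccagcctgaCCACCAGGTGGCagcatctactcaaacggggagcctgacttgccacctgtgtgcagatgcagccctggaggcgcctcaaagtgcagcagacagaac
Gm16130: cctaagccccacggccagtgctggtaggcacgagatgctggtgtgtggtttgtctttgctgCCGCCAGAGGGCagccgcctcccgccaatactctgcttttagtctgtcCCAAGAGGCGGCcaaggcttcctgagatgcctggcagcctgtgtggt
Trim33: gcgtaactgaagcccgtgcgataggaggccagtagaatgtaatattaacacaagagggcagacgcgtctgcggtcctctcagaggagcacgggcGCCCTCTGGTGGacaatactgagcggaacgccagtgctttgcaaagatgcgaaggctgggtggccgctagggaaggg

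The next sequences belong to members beside vascular genes, and each is the best-ranked member of its gene list. They were picked from such members and all hold a pattern, which was not the rule. The best-ranked list members annotated to Cdh5, Klf4, Nfkb1, Calcrl, Maml2, Acvr2a, Foxp1, Efnb2 and Adamts9 held none of the 5 patterns in the shared interval. Kdr encodes VEGF receptor 2, and its member at chr5:75871169-75871468 lies between genes, 107.1 kb from the Kdr start, with the KLF and the CTCF pattern. Slco1c1 encodes a thyroxine transporter of the blood-brain barrier, and its member at chr6:141514402-141514701 lies 9.8 kb upstream with the KLF pattern. Tcf7 encodes a nuclear partner of beta-catenin, and its member at chr11:52318550-52318797 lies 36.1 kb upstream with the ETS pattern. Epas1 encodes HIF-2 alpha, and its member at chr17:86705392-86705691 lies 48.3 kb upstream, also with the ETS pattern.
Kdr: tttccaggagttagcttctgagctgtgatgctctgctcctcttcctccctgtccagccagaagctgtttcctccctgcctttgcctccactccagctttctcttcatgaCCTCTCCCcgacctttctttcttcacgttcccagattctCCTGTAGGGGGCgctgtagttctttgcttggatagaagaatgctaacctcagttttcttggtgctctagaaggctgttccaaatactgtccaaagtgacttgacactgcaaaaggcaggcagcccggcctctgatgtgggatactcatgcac
Slco1c1: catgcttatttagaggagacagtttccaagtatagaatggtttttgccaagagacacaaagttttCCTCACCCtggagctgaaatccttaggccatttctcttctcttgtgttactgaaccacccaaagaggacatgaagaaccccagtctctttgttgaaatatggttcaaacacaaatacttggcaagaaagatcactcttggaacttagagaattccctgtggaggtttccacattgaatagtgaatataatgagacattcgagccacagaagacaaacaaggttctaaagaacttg
Tcf7: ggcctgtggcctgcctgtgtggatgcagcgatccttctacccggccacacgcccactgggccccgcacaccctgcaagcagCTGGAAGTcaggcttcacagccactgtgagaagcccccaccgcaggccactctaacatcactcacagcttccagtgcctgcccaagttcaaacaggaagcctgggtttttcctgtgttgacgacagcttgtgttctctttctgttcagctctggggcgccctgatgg
Epas1: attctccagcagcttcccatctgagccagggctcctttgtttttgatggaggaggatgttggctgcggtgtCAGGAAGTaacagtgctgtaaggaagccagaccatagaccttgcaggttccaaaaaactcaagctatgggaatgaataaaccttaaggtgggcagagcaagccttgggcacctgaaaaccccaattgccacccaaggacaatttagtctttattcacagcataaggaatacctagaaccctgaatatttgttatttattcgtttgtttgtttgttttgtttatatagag

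The members were narrow and lay in the weaker part of both peak lists. Their median width was 342 bp and 78.7% were under 500 bp wide. In old EC-K4KO replicate 1 the median fold of a member peak over local background was 3.79 (quartiles 3.32 and 4.45), and in replicate 2 it was 3.98 (quartiles 3.52 and 4.61). In the other regions with peaks in both libraries the median fold was 6.16 and 6.28. Ranked by -log10 p, where 0% is the strongest peak of a list and 100% the weakest, the median member stood at 69.3% of the list of replicate 1 and at 76.6% of that of replicate 2. Only 87 members stood above the middle of both lists, while 993 stood beyond the 75% point of both. Regions found in 1 of the 2 libraries alone were weaker still, with a median rank of 87.4% (8405 regions of replicate 1) and 90.9% (4161 regions of replicate 2).

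By the merging rule, the peaks of both replicates in a member had to share bases. The median overlap was 98.3% of the shorter peak, and in 3379 members (95.2%) at least 50% of the shorter peak was shared. This measure is complete whenever a narrow peak lies inside a wider one, so it does not show equal positions. The median member peak was 262 bp wide in replicate 1 and 267 bp in replicate 2, beside 342 bp for the merged region. Across members, which are not independent replicates, Spearman's correlation between the 2 libraries was 0.56 for -log10 p and 0.59 for fold, over values that the choice of members had already limited to called peaks. A q under 0.01 in both libraries was reached by 2538 members (71.5%).

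**Figure D1:**
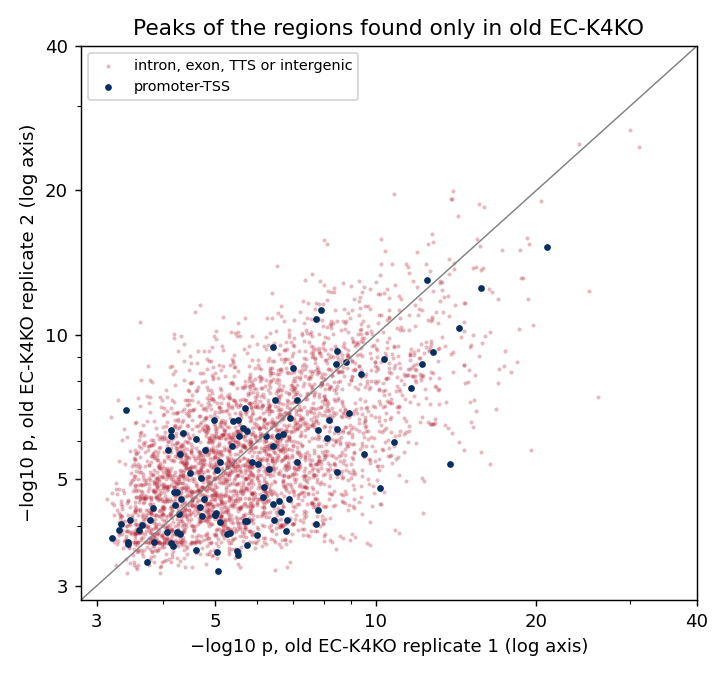
Strength of the member peaks. Each point is 1 member, with its -log10 p in old EC-K4KO replicate 1 on the x axis and in replicate 2 on the y axis, both on log axes; dark points are members at a promoter, red points all others, and the line marks equal values. The median member has a -log10 p of 5.73 in replicate 1 and 5.53 in replicate 2. The best-ranked promoter member, at Sepn1, has 20.96 and 15.22, below the highest values of 31.13 and 26.73, which belong to members in introns.

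The 10 best-ranked members were mostly distal, and only one of them was a promoter. The member in intron 1 of Alad, which encodes an enzyme of haem synthesis, had a -log10 p of 30.0 and 26.73 in replicates 1 and 2, with a fold of only 4.11 and 4.30. That in intron 1 of Eef2kmt, the methyltransferase of elongation factor 2, had 31.13 and 24.59 at a fold of 3.91 and 3.78. The intergenic members near Arhgap23, which encodes a GTPase-activating protein, and near Pcnx had 24.04 and 24.96, and 20.40 and 19.02, at folds between 4.27 and 4.95. These 4 thus ranked best by -log10 p at folds of 3.78 to 4.95, below those of the members near Mapre3, Zfpm1 and Trim33. The member upstream of Mapre3, which encodes the microtubule end-binding protein EB3, had a fold of 8.47 and 8.09. Those near Zfpm1, the GATA cofactor FOG1, had 6.68 and 8.06, and near Trim33, a ubiquitin ligase acting on SMAD signalling, 6.38 and 9.42. Gm16130 had a fold of 7.62 and 7.07 and 4930592I03Rik one of 6.58 and 8.01. Ranked by fold in place of -log10 p, an order added after the values were seen, 5 of these 10 stayed among the best 10, and the member in an intron of Nr3c1, the glucocorticoid receptor gene, was the third with a fold of 8.86 and 6.86.

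The CTCF pattern was frequent at the top of this order. It was present in 7 of the 10 best-ranked members, counted in the 300 bases at the region's centre, in 17 of the best 100, and in 488 of all 3548 (13.8%). Since the pattern was added after the best-ranked sequences had been seen, the first count is a description only.

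Just inside and just outside the selection, peak values overlapped. The weakest members by q were in introns of Disp1 (-log10 q of 1.02 in replicate 1), Slc2a4rg-ps and Tbc1d7. The best-ranked regions that failed by a single other list were in an intron of Nek7, upstream of Tpd52 and in an exon of Prg3, and in each of them the other list was old WT Cre replicate 1. There the Nek7 peak had a -log10 p of 27.35, beside 34.20 and 28.24 in the old EC-K4KO replicates. In all, 4106 regions had peaks in both old EC-K4KO lists and exactly 1 other list, which was old WT Cre replicate 1 for 1951 of them and old WT Cre replicate 2 for 1464.

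Compared with the reverse pattern, the members were numerous. Regions with peaks in both old WT Cre libraries and in no other library numbered 316, or 0.342% of all merged regions and 1.27% of the 24840 regions held by both old WT Cre libraries. A further 3520 regions were present in all 4 old libraries and no young one. The old lists differed in length, with 45026 and 39079 peaks in old EC-K4KO and 43893 and 32555 in old WT Cre, and the young lists were shorter, with 6157 to 27992 peaks. When each of the 4 old lists was cut to its 32555 strongest peaks, 1808 regions were found only in old EC-K4KO and 470 only in old WT Cre. With all 9 lists cut to 6157 peaks the numbers were 82 and 54, and none of the 3548 members was among the 82. The direction also rested on the requirement for both old WT Cre libraries: without old WT Cre replicate 2, regions of old WT Cre replicate 1 alone numbered 13706 against 5022 members, and without replicate 1 the numbers were 4301 and 5508. Depth per library is unknown, and its part in these counts was not tested.

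**Figure D2:**
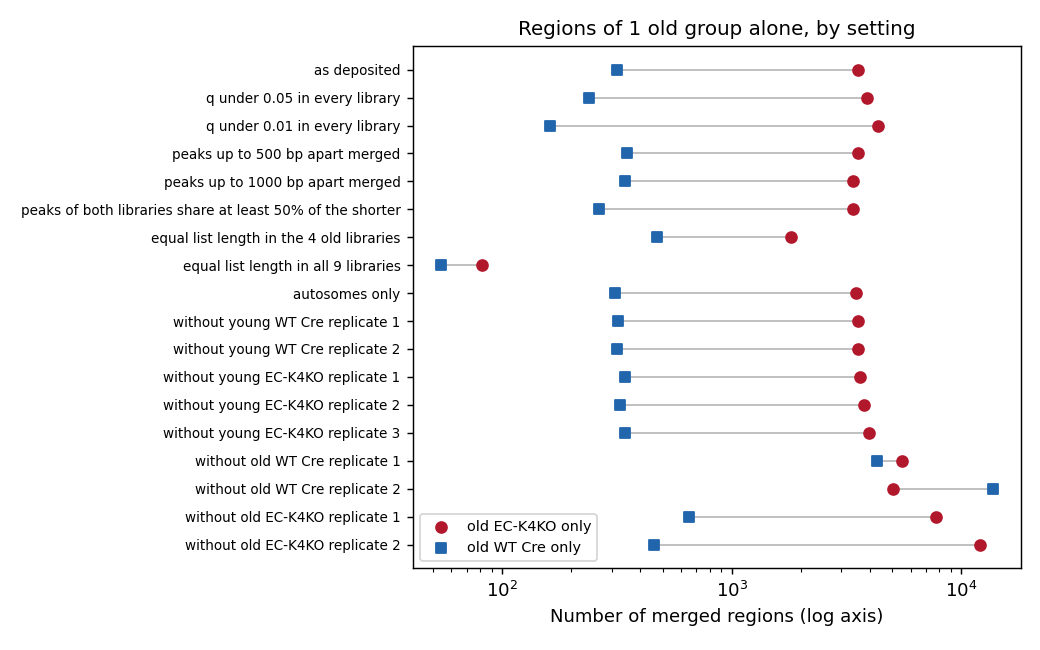
Regions found only in old EC-K4KO (red circles) and only in old WT Cre (blue squares), one row for each way of counting, on a log axis of the number of merged regions. The circles lie to the right, 3548 against 316 as deposited, in every row except the one without old WT Cre replicate 2, and the gap is small without old WT Cre replicate 1 (5508 against 4301) and at equal list length in all 9 libraries (82 against 54).

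Most members lay in introns and between genes. Introns held 1808 members (51.0%), 612 of them in a first intron, and 1409 (39.7%) were intergenic. Promoter-TSS members, by the annotation of the authors, numbered 108 (3.04%), exons held 151 (4.26%) and transcription termination sites 72 (2.03%). Promoters took 27.3% of the other regions held by both old EC-K4KO libraries, 62.5% of the 4872 regions open in all 9 libraries and 4.11% of the regions only in old WT Cre. Members were a median 27.3 kb from the nearest TSS, and 56.1% lay between 5 and 50 kb from one. With a promoter taken instead as any overlap with 1000 bp on either side of a TSS of GENCODE M21, 327 members (9.22%) counted as promoters.

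**Figure D3:**
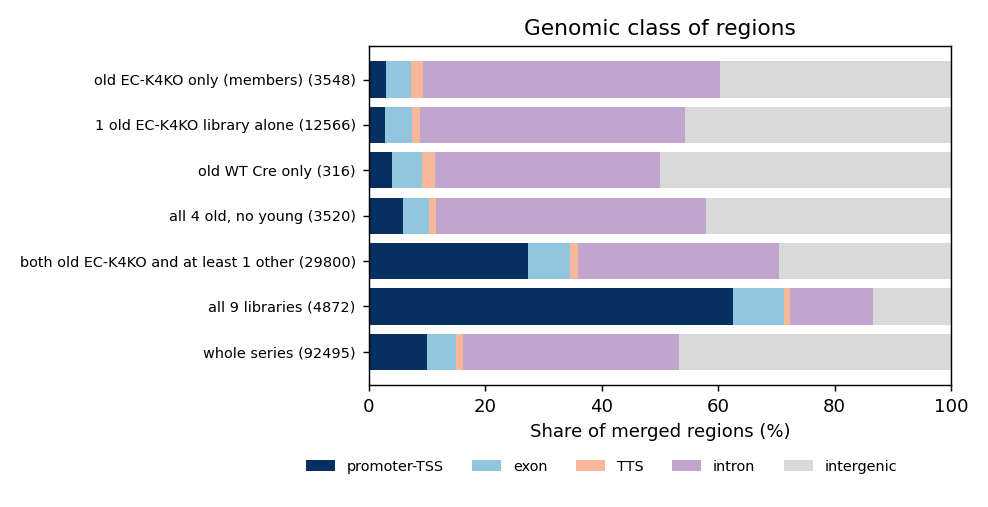
Genomic class of merged regions. Each bar is 1 set of regions, with its number in parentheses, and shows the percent of the set in each class of the deposited annotation. The members (top bar) have 3.04% promoter-TSS regions, close to regions of a single old EC-K4KO library and below the 27.3% of regions that both old EC-K4KO libraries share with other libraries.

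The promoter members included few genes that define a cell type. The best-ranked was 41 bp from the start of Sepn1, a selenoprotein of the endoplasmic reticulum, with a fold of 5.81 and 5.27. It was followed by Wdr24, a subunit of the GATOR2 complex that acts on mTORC1, with 7.29 and 6.30, and by Mir1957b with 6.58 and 7.18. The members labelled as promoters of Wbp1l (fold 4.16 and 3.82) and Fkbp1b, which encodes a regulator of the ryanodine receptor (3.73 and 3.54), came next, although that of Wbp1l was 24.1 kb from the start the annotation gave. Of the genes in the lists used here, 7 had a promoter member. Ackr1 encodes a chemokine receptor of venular ECs (fold 3.24 and 4.33), and Pgf encodes placental growth factor, a VEGF family ligand (3.26 and 3.35). Gja1 encodes connexin 43 (3.89 and 3.28), Tubb3 a neuronal tubulin (3.26 and 4.59) and Tsc22d3 a glucocorticoid-induced protein (5.10 and 4.05, at 58.2 kb from the start given). The remaining promoter members were at Acta2, smooth muscle actin (3.68 and 2.93), and Tagln, the smooth muscle protein SM22 (4.36 and 3.31). At Acta2 only the peak of replicate 1 was classed as promoter.

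Acta2 and Tagln are mural cell genes, and mural promoters were unevenly open across libraries. A promoter peak was found at none of 15 pericyte and mural marker genes in any young library and in old WT Cre replicate 1, at 3 in old WT Cre replicate 2, and at 6 and 3 in old EC-K4KO replicates 1 and 2. In members, 5 regions at 3 of these genes (Cspg4, Acta2, Tagln) were found, 33.3% of the 15 regions of this list held by both old EC-K4KO libraries, beside 10.6% over all genes. Among intron and intergenic regions it was 3 of 11 (27.3%), beside 14.4% over all genes. Endothelial identity genes had promoter peaks at 11 to 16 of 20 genes in every library, and microglia or macrophage and neutrophil or lymphoid markers at 0 of 15 in every library. Promoters of astrocyte, oligodendrocyte, neuron, and ependymal or fibroblast markers were open at 0 to 5 genes of each list, with the 5 in old EC-K4KO replicate 2 at neuron markers. The part of mural cells in the members was not tested. A Klf4 promoter peak was present in all 9 libraries, with a fold of 6.89 and 6.78 in old EC-K4KO and 4.51 and 5.38 in old WT Cre. A promoter peak is no check of the deletion.

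Members lay near, but seldom beside, peaks of the other libraries. The nearest peak of any of the 7 libraries without a member peak was a median 6.9 kb away; it was within 1 kb for 7.22% of members and within 5 kb for 37.2%. Peaks of old WT Cre replicates 1 and 2 were within 5 kb of 24.7% and 22.1% of members, those of the 3 young EC-K4KO libraries of 11.1% to 16.7%, and those of young WT Cre of 2.4% and 4.0%, an order that follows the length of the lists. A group of 479 members (13.5%) was over 20 kb from any such peak. Only 139 members had another member within 5 kb. The genes nearest to members had promoter peaks in old WT Cre about as often as all genes did: 41.4% of the 2841 member genes had a promoter peak in either old WT Cre replicate, beside 40.8% and 40.6% of all 19707 genes. In old EC-K4KO the shares were 45.8% and 45.9% beside 42.9% and 41.6%. These old EC-K4KO shares were in part set by the choice of members. Among the member genes, 108 had a promoter member, which is itself a promoter peak of old EC-K4KO.

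The sequence of distal members held fewer KLF patterns than that of other replicated regions. In the 300 bases at the centre of intron and intergenic regions, the KLF pattern was present in 23.5% of 3217 members. It was present in 42.1% of the 280 such regions found only in old WT Cre, in 32.5% of those in all 4 old libraries and no young one, and in 35.9% of the other regions held by both old EC-K4KO libraries. In the whole series the share was 26.2%, and in regions of a single old EC-K4KO library 23.3%. This pattern fits GC and CACCC boxes, which SP factors and the other KLF proteins also bind. Its free positions also let it match other runs rich in C or G, such as CCTCTCCC near Kdr and GGGGGAGG near Arhgap23. The share is therefore not a count of KLF or SP sites alone.

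Members were also less rich in GC, with a median of 47.7% against 49.8% for old WT Cre only and 50% for the other regions of both old EC-K4KO libraries. In every class of GC content the members had a lower KLF share than regions only in old WT Cre, in all 4 old libraries, or shared by both old EC-K4KO libraries with others. Under 45% GC the KLF pattern was in 10.6% of members, 23.7% of old WT Cre only and 15.4% of the regions in all 4 old libraries, and at 50% to 55% GC the shares were 27.2%, 44.9% and 37.3%. At 55% GC and above they were 55.4%, 62.7% and 60.6%. Within bins of strength the members were lower as well: between the median and the 75% point of the old EC-K4KO lists the pattern was in 21.9% of members and 33.0% of the other regions of both libraries, and beyond the 75% point in 25.4% and 33.4%. In regions only in old WT Cre the share differed with strength in their own lists, from 70.8% of the 24 in the stronger part to 48.5% of 130 and 30.2% of the 126 beyond the 75% point.

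With the old lists cut to equal length the shares were 22.3% for old EC-K4KO only and 42.8% for old WT Cre only. The gap was not seen where 1 library was enough. Regions found in 1 old WT Cre library alone held the pattern in 19.8% (replicate 1) and 22.5% (replicate 2), and those in 1 old EC-K4KO library alone in 24.3% and 21.1%, ranges that overlap. Without old WT Cre replicate 1 the shares were 24.3% of old EC-K4KO only and 23.7% of old WT Cre only, and without replicate 2 they were 25.6% and 20.3%. The difference between these sets was therefore seen only with the regions that both old WT Cre libraries shared. No test was run over regions, since all members came from the same 2 libraries.

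**Figure D4:**
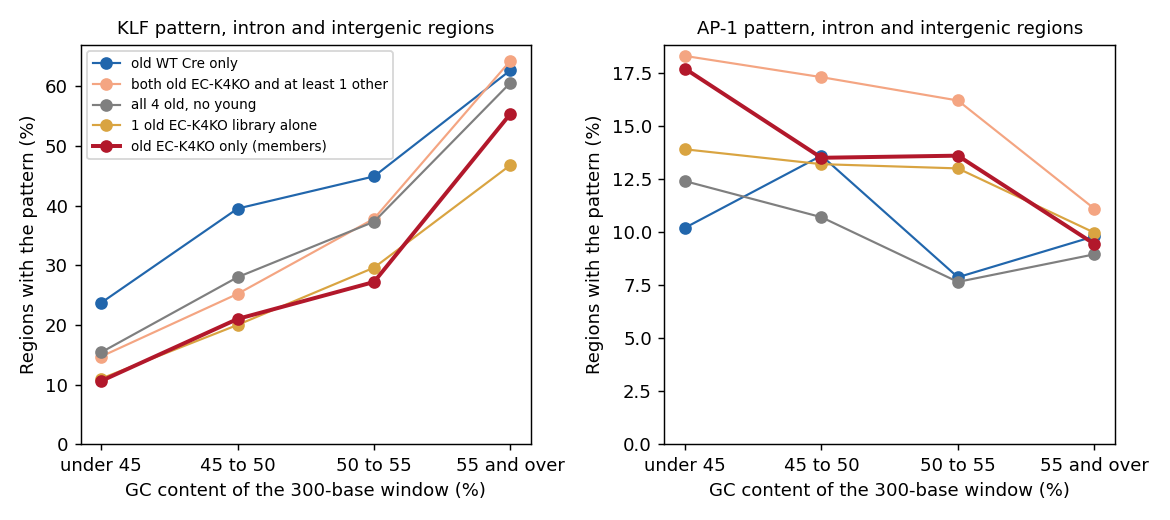
Share of intron and intergenic regions with the KLF pattern (left) and the AP-1 pattern (right), by GC content of the 300-base window, for 5 sets of regions. The KLF line of the members (thick, red) lies below those of old WT Cre only, of all 4 old libraries and of the other regions of both old EC-K4KO libraries in every GC class for example 10.6% against 23.7% for old WT Cre only under 45% GC, while regions of a single old EC-K4KO library have 11% there. The AP-1 lines of members and old WT Cre only cross, with 13.5% and 13.6% at 45% to 50% GC.

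How the other patterns differed depended on the set compared. AP-1 was present in 14.4% of distal members, in 10.4% of old WT Cre only, in 10.2% of the regions of all 4 old libraries and in 15.6% of the other regions of both old EC-K4KO libraries. SoxF was present in 10.8% of members and of the regions in all 4 old libraries, in 5.71% of old WT Cre only and in 6.43% of regions of a single old EC-K4KO library. ETS was present in 11% of distal members, near the other replicated sets. It was in 9.9% of the regions of all 4 old libraries and in 10.7% of the other regions of both old EC-K4KO libraries. Old WT Cre only lay between these values. ETS was lower in regions of a single old EC-K4KO library (7.4%) and in the whole series (7.05%). The longer CTCF pattern was in 13.6% of distal members and in 15.0% of old WT Cre only. It was in 12.3% of the regions of all 4 old libraries and in 11.1% of the other regions of both old EC-K4KO libraries. In the whole series the CTCF share was 8.47%. Of all members, 1490 (42%) held none of the 5 patterns and 1526 (43.0%) exactly 1. Repeats were not frequent: 12.2% of bases in distal members were soft-masked, beside 22.4% in the whole series.

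The members were spread over many genes, and a few genes had several. The 2841 genes nearest to a member included 545 with at least 2, and the highest numbers were at Irf2bp2 (7 members) and Epas1 (6). All 7 members of Irf2bp2, which encodes a transcriptional co-repressor, were intergenic and spread from 166.5 kb upstream to 36.5 kb downstream of its start, with folds of 2.75 to 6.02 in replicate 2. Epas1 had 2 members in its first intron, 1 in an intron of a neighbouring gene and 3 between genes. Another 8 genes had 5 members each: Camta1, Etv6, Lef1, Tgfbr2, Utrn, Zfp608, 9430078K24Rik and A730004F24Rik. Lef1 is a partner of beta-catenin, Tgfbr2 a receptor of TGF-beta, and Etv6 an ETS repressor. These 10 genes had 20 to 52 merged regions each. For Irf2bp2, 7 of 25 merged regions were members, and none was found only in old WT Cre or in all 4 old libraries alone; for Tgfbr2 it was 5 of 52. Over all merged regions the share of members was 3.84%.

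Genes of endothelial function often had a member, and they also had many regions of every kind. Of 20 endothelial identity genes, 11 had at least 1 member (55%), compared with 14.4% of all genes, and 1 had a region only in old WT Cre. The junction list had 9 of 18, the Notch list 9 of 18, ETS, SOX and forkhead factors 11 of 22, and the VEGF and angiopoietin list 8 of 17. The lists were chosen with results of these data known. Taken as a share of the regions held by both old EC-K4KO libraries, members made up 10.7% at endothelial identity genes (21 of 197), beside 10.6% over all genes, and 12% beside 14.4% among intron and intergenic regions. Both shares were near those over all genes.

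Among endothelial identity genes, Kdr had 4 members, all between genes and 23.8 to 107.1 kb from its start, with folds from 3.22 to 5.77. Cdh5 had 3, all over 100 kb upstream, with folds of 3.41 to 6.21. Pecam1, which encodes CD31, had 2 in its introns, Flt1 had 2 in its introns, and Erg, an ETS factor of endothelial identity, had 1. In the junction list, members made up 15.9% of the regions (14 of 88), the second highest share among lists of endothelial function: Tjp1, the scaffold protein ZO-1, had 4, and Ocln, which encodes occludin, had 1. The highest was the hypoxia and oxidative stress list with 16.9% (14 of 83), where Epas1 had 6 members and Egln3, a prolyl hydroxylase acting on HIF proteins, 4; 10 of the 14 were at these genes. In the TGF-beta and BMP list it was 13.1% (20 of 153), with Tgfbr2, Tgfbr3 (4 members) and Smad6, an inhibitor of BMP signalling (3 members). In the list of leukocyte adhesion and NF-kB genes it was 13.0% (9 of 69), with 4 members in introns of Nfkb1 and folds of 2.90 to 4.39. Over all genes the share was 10.6%. Among intron and intergenic regions alone, the share over all genes was 14.4%. There the TGF-beta and BMP list had 15.4% and the leukocyte adhesion and NF-kB list 16.0%, both near that share. The junction list had 18.1% and the hypoxia and oxidative stress list 21.5%.

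**Figure D5:**
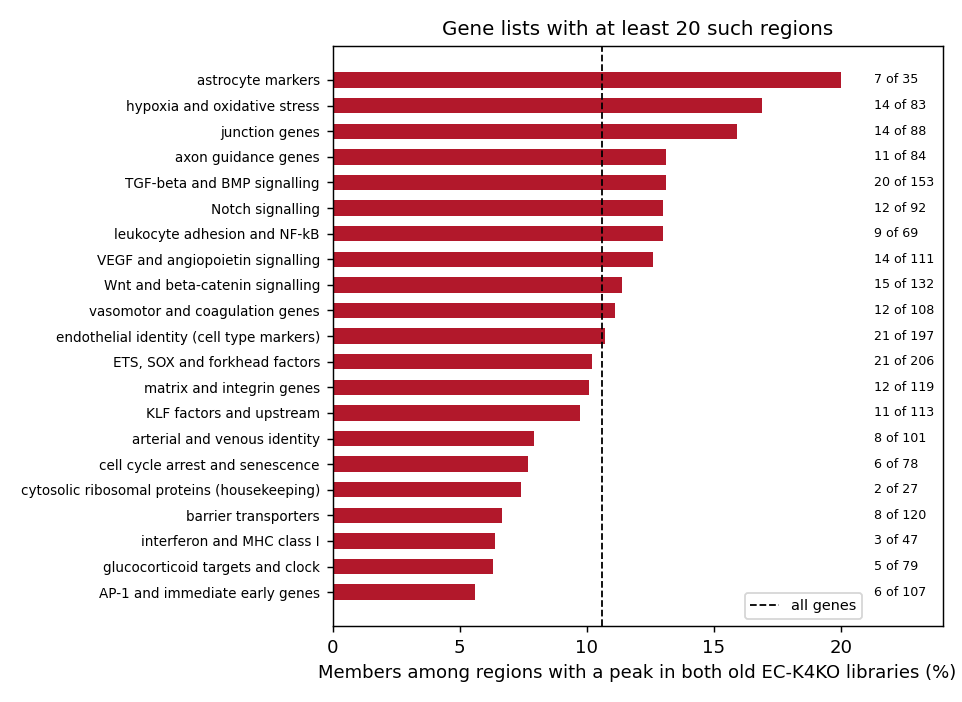
Members as a percent of the regions that have a peak in both old EC-K4KO libraries, for each gene list with at least 20 such regions, with the numbers at the right; the dashed line is the same share over all genes, 10.6%. Hypoxia and junction lists lie to its right at 16.9% and 15.9%, endothelial identity genes at the line with 10.7%, and AP-1 and immediate early genes to its left at 5.61%.

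The lowest shares were in the lists of AP-1 and immediate early genes (6 of 107, 5.61%), glucocorticoid targets and clock genes (5 of 79, 6.33%), interferon and MHC class I genes (3 of 47, 6.38%) and barrier transporters (8 of 120, 6.67%). In the first of these, Fos had 2 members, with folds of 4.54 and 6.23 at the one 10.9 kb upstream. In the barrier transporter list, Slco1c1 had the best-ranked member with 6.61 and 7.72, and Slc7a1, a cationic amino acid transporter, had 3. In the KLF list the shares were a little below those over all genes, with 11.7% among intron and intergenic regions. Members made up 9.73% of its regions held by both old EC-K4KO libraries (11 of 113), at 8 of 20 genes. The deleted gene Klf4 had 3 of them, all between genes: 54.4 kb downstream (fold 5.11 and 3.73), 389.0 kb upstream (3.10 and 3.43) and 538.4 kb upstream of its start (4.34 and 4.71). Klf2, a flow-induced relative of Klf4, had 1, in an intron of a neighbouring gene (3.56 and 3.42). Only 2 of the 8 genes kept a member when members were limited to 50 kb from the start. Remaining lists with at least 20 regions had shares between 7.41% and 13.1%, except astrocyte markers with 20% (7 of 35, 3 of them at Gja1). In 7 short lists with under 20 regions in both old EC-K4KO libraries the members numbered 0 to 5, with 4 of 11 regions at neuronal channels and receptors (36.4%) and none of 13 oligodendrocyte lineage genes.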

How the data were processed

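Open chromatin was measured in 9 Omni-ATAC libraries of sorted brain ECs, grouped by the labels. The authors trimmed reads with TrimGalore, aligned them to mm10 with Bowtie2, removed duplicate and unsuitable reads with Picard and SAMtools, and called broad peaks in each library alone with MACS2 on paired fragments without a control. Whether cut positions were shifted for the transposase is not given in the sources used here. The deposited peak lists hold a display score, a fold over local background, a -log10 p and a -log10 q for each peak. The deposited annotation tables hold the genomic class, the nearest gene and the distance to its TSS, with the peak score. No read counts were used, so depth per library is unknown, and no interval or test on counts was made. Because a list holds only called peaks, the absence of a peak means below the threshold of that list. No list held a peak with a q above 0.0945 among the members.

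Peaks sharing at least 1 bp were merged over the 9 lists, and presence per library decided membership. The deposited annotation of the peak of old EC-K4KO gave class and gene; the nearest gene is assigned by distance only. Sequence was read from GRCm38 in windows of 300 bases, and 23 patterns were counted on both strands (5 are used in the text, one of them a longer CTCF pattern). Regions named were the 10 best-ranked members by mean rank of -log10 p, the 5 best-ranked promoter and intergenic members, the 5 genes with the most members, the best-ranked member of each gene list, other genes of the 28 lists, and the 3 regions just inside and just outside the selection. Some items that this rule names are not reported here. The members, lists and rules were chosen with earlier results of these data known. Alternatives were stricter q limits, wider merging, equal list lengths, autosomes only, leaving out each library, another window, another promoter definition and other distance limits. The CTCF pattern, the order by fold and the split by GC content, strength and single library were chosen after seeing the data. The labels do not say whether libraries of a group came from separate animals, so the spread between them may be technical. The merging and selection steps were tested on simulated peak intervals, and the counting of sequence patterns was not tested in this way. All steps ran in Python 3.11.15 (pandas 2.3.3, numpy 2.4.6), with rank correlations from scipy 1.17.1 and plots from matplotlib 3.10.9.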

Additional observations from a re-analysis of the deposited data

How the results depend on the processing

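The number of regions only in old EC-K4KO, 3548 as deposited, was 1808 with the 4 old lists cut to equal length and 82 with all 9 lists cut to equal length. Leaving out 1 library at a time gave 3550 to 12029 regions, with the large values 5508 and 5022 without old WT Cre replicates 1 and 2, and 7764 and 12029 without old EC-K4KO replicates 1 and 2, where 1 library alone then defined the group. The share of promoter members, 3.04% as deposited, was 4.16% with q under 0.01 in every library, 9.76% at equal length of all 9 lists, 9.22% by the GENCODE definition, and 2.72% to 4.38% when 1 library was left out. The share of all members with the KLF pattern, 25.5% in 300 bases, was 17.4% in 200 bases and 23.5% among intron and intergenic members. The share near a peak of another library rose from 7.22% within 1000 bp to 37.2% within 5000 bp by construction. Limiting members to 50 kb from a TSS moved 9 gene lists by more than 1.5 times, each to fewer genes, for example KLF factors from 8 to 2 and Notch from 9 to 5. No paired analysis was possible because no test was run: membership was set by peak presence, and the files hold no counts. Unknown depth limits every count of regions, since a peak missing from a list may be a region below its threshold.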

Other observations

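On the X chromosome lay 74 of 3548 members (2.09%), beside 2.23% of the other regions held by both old EC-K4KO libraries. By side, 60.6% of members were downstream of the nearest TSS and 39.4% upstream, a count that includes members within the gene body. In single-library intron and intergenic regions, outside the members, the longer CTCF pattern was present in 11.4% and 12.5% for old EC-K4KO replicates 1 and 2 and in 4.47% and 7.51% for old WT Cre replicates 1 and 2. In all intron and intergenic regions of the series it was 8.47%. The groups did not overlap in this share, with 2 libraries each and no test. The 5 young libraries had the CTCF pattern in 4.01% to 5.57%. The difference was not particular to CTCF. ETS was in 7.32% and 7.56% for old EC-K4KO and in 4.8% and 5.62% for old WT Cre. SoxF was in 6.18% and 6.94% against 5.3% and 5.52%, and AP-1 in 13.3% and 12.2% against 9.2% and 11.1%. The KLF shares overlapped. These single-library regions were weak peaks, and the part of depth and peak strength in these differences was not tested.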
